A study of Mus musculus with 8 samples.

Results

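BCL11A is a zinc finger repressor that works through partner complexes, and the 39 genes described here encode the subunits of 2 of them, BAF and NuRD. They were chosen by name as subunits of BAF, of its relative PBAF or of NuRD, and are 39 of the 21631 protein-coding genes used. The assay was ATAC-seq, in which a transposase cuts and tags accessible DNA, and the cells were long-term haematopoietic stem cells sorted from mouse bone marrow. All animals carried the alleles named Vav1-cre and iMOS Bcl11a, in a MUT or a WT form. Vav1-cre drives recombination in blood cells. From each genotype the cells sorted as T1 and as T2 were profiled, which gave 4 groups (MUT T1, MUT T2, WT T1 and WT T2) of 2 libraries each. The sources used here do not say what separates T1 from T2 or which carries the transgene. The age is 2 to 3 months in one label and 3 months in the description of the design, and 5000 nuclei per library were incubated with transposase for 30 min at 37 °C. Nothing says that the 2 libraries of a group came from separate animals, so every spread between libraries may be technical. The study asked about the role of Bcl11a inside the stem cell and about effects of its overexpression on neighbouring wild-type cells.

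BAF complexes use ATP to slide or evict nucleosomes and are known mostly for keeping enhancers and gene starts open. Canonical BAF and PBAF hold an ATPase, SMARCA4 or SMARCA2, on a core of SMARCB1, SMARCC, SMARCD, SMARCE1 and actin-like subunits. Canonical BAF adds ARID1A or ARID1B and a DPF protein, PBAF adds ARID2, PBRM1, PHF10 and BRD7, and non-canonical BAF is marked by BRD9. NuRD couples a CHD ATPase to the histone deacetylases HDAC1 and HDAC2. MTA proteins are its scaffold, RBBP4 and RBBP7 bind histones, MBD2 and MBD3 link it to methylated DNA or to its core, and GATAD2 proteins bridge MBD and CHD. BCL11A is best known for silencing fetal globin genes in red cells with NuRD, and BAF subunits are also found with it. An open gene start is not a measure of expression: all values below describe chromatin.

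The peaks of the 8 libraries merged into 90736 regions, of which 79484 lay in a gene span or within 50 kb of one and 241 were assigned to the 39 genes. A region counts as called wherever the list of a library holds a peak in it. Column 7 of each list, called fold enrichment below, is the ratio the peak caller gives between a summit and the background around it. It is the authors' own value and is used only to describe. Lists of 4 values within a genotype give the T1 pair before the T2 pair, replicate 1 before 2. Positions are in the mm10 build. The annotation used gives gene spans, so whether a region lies in an exon or an intron was not analysed here.

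The gene starts are shown first, because almost all of them were open and because the letters say what kind of start they are. The bases are those RefSeq gives (GRCm38.p6, the assembly of mm10) from at most 250 bases before the transcription start up to the edge of the gene span, 5′ to 3′ on the gene's strand. Capitals mark the GC box GGGCGG or its reverse complement CCGCCC, bound by SP and KLF factors, and the motif of BCL11A, TGACCA, or its reverse complement TGGTCA. The set holds the BAF ATPase gene Smarca4 (chr9:21615919-21616105, plus strand), the strongest start Phf10 (chr17:14961261-14961510, minus strand), and the actin-like pair Actl6a (chr3:32708296-32708545, plus strand) and Actl6b (chr5:137553296-137553360, plus strand). It adds Dpf2 (chr19:5912872-5913121, minus strand), which has no GC box, the weak NuRD ATPase start Chd4 (chr6:125095731-125095979, plus strand), and Smarcd1 (chr15:99702037-99702286, plus strand), the 1 member with a TGACCA match.
Smarca4: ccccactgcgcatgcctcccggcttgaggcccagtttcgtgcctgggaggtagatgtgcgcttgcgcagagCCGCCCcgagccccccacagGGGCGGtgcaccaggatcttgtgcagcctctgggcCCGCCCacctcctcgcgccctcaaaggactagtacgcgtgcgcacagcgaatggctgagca
Phf10: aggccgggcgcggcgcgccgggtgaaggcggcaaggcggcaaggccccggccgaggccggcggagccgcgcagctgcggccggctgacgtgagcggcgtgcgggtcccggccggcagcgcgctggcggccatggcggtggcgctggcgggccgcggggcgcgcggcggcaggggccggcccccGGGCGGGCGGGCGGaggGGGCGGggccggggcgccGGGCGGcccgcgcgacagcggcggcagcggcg
Actl6a: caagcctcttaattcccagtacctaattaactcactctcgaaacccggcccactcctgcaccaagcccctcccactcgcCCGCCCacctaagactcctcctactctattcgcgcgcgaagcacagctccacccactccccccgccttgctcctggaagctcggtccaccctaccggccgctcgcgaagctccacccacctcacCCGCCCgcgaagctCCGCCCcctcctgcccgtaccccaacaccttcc
Actl6b: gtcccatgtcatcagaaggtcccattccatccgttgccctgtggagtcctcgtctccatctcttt
Dpf2: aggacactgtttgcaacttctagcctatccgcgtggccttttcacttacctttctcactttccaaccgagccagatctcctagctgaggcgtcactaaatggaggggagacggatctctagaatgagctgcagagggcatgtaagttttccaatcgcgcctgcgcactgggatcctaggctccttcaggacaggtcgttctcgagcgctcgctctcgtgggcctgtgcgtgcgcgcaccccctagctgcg
Chd4: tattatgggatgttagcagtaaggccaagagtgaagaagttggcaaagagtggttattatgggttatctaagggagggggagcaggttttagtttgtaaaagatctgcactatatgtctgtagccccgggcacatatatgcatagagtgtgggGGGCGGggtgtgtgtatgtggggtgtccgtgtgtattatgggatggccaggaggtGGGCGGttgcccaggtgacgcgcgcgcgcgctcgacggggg
Smarcd1: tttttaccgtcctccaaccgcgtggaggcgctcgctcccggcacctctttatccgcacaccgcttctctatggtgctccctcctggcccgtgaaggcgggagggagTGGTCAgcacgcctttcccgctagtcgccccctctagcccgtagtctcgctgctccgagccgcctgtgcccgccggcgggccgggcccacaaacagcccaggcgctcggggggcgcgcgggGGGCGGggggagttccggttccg

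Over the whole 300-base promoters (250 bases before the start and 50 after), GC boxes were in 36 of 37 promoters of the 31 members in the RefSeq table, or 97.3%, against 46.7% of 21045 promoters of protein-coding genes. The promoter without one is that of Dpf2, and the box of Actl6b lies outside the 65 bases printed for it. The members' promoters had a median GC content of 68.7% against 56.7% for all, and a median of 32 CpG (from 4 at Smarcd2 to 62 at Phf10) against 13. TGACCA was in 1 of the 37 promoters, or 2.7%, against 12.6% of all. The absence of these letters in a window says nothing of BCL11A itself. The other motifs were likewise searched on both strands. The NF-Y motif CCAAT was in 32.4% of the members' promoters against 38.5% of all. For ETS factors, CCGGAAG was in 16.2% against 11.7%. The core of the NRF1 site, CGCATGC, was in 8.11% against 4.48%, and the RUNX motif TGTGGT in 13.5% against 14.7%. For GATA factors, GATAAG was in 5.41% against 6.95%. The TATA box, searched as TATAAA, was in 5.41% against 12.7%, and the YY1 motif AAGATGG in 2.7% against 6.28%. Matches of a motif may overlap each other, as the run of GC boxes at Phf10 shows, and may overlap another motif.

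A region within 1 kb of the start was called in all 8 libraries at 38 of the 39 genes, where 65.3% of all 21631 genes had one. For 8 genes without a start in the RefSeq table (Arid2, Smarce1, Ss18, Bcl7a, Chd3, Hdac1, Mta3 and Mbd2) either end of the gene span was taken. With span ends used for every gene, all 39 members and 64.8% of all genes had such a region. The 1 exception by this count is Smarcd2, an accessory core subunit, whose 1 listed start does not lie at the end of its gene. That start, base 106267632 of chromosome 11 on the minus strand, is 5.37 kb inside the 5′ end of the span. Nearest to it, the region chr11:106268925-106269425 was called in 6 libraries, with a fold enrichment of 2.48 to 3.41, and was missing in MUT T1 replicate 1 and WT T2 replicate 2. At the 5′ end of the span, chr11:106272278-106273521 was called in all 8 libraries at 4.50 to 5.94. The promoter at the listed start had 4 CpG, the fewest among the members' promoters in the table. Starts listed over 1 kb inside the 5′ end of the span were also found at Smarcd3, Gatad2a and Arid1a (22.5, 22.0 and 2.78 kb). Where a gene had several start regions, the one with the highest median is described.

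**Figure D1:**
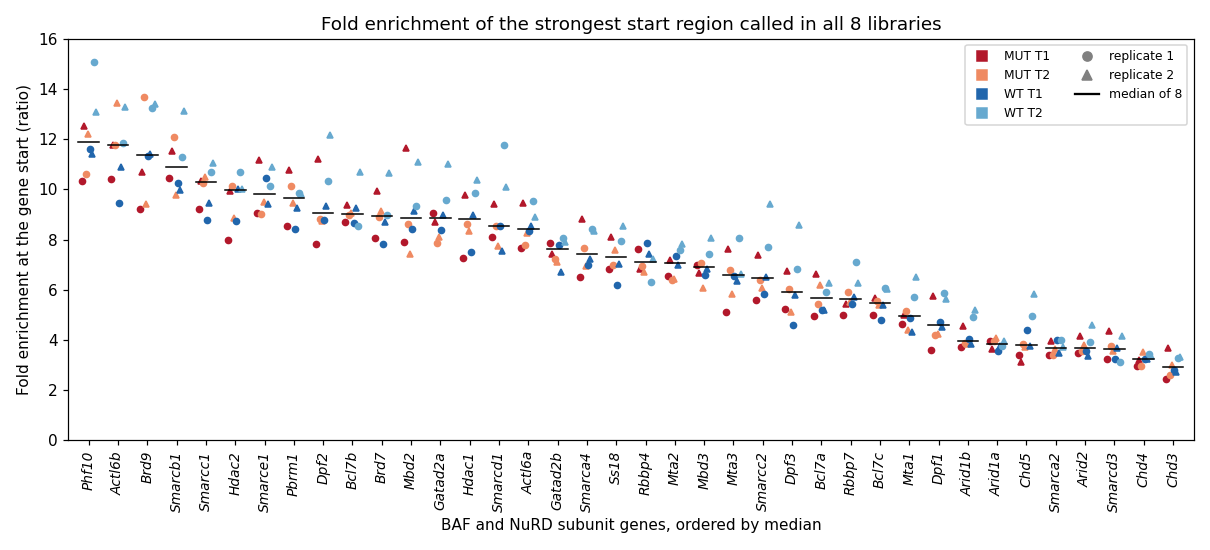
Fold enrichment (ratio, linear axis) of the strongest region at the start, or at a span end where no start was listed, of the 38 members with a region called in all 8 libraries, ordered by the median of 8. Each point is 1 library, coloured by group and shaped by replicate, and black bars are medians: they run from 11.89 at Phf10 to 2.91 at Chd3, and MUT and WT overlap at every gene.

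The starts ranged widely in strength between members. The median over the 38 starts was 7.20, against 7.94 for the 14134 genes with such a region, and the members' start regions were wider, with a median of 1503 against 1303 bp. Of the 38, 7 were at or above the upper quartile of all such genes (9.76) and 14 below the lower quartile (6.34). No start separated MUT from WT: at 0 of 38 did all 4 values of one genotype lie above those of the other. Of all regions called in all 8 libraries, at any position, 0.552% were higher in every MUT library and 2.44% lower. By such shares few of 38 starts would be expected to separate. With each value divided by the median of its library, the start of Mta2 was lower in every MUT library and a second start region of Smarca2 (chr19:26605814-26608024) higher. Across the 30 members with a listed start, the Pearson r of fold enrichment with the CpG number was -0.06 and the Spearman rho -0.16, and rho with width was -0.11. These points are genes measured in the same 8 libraries, and the values only describe them.

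Both BAF ATPase genes were open, at different strength. Smarca4, the main ATPase of stem cells, had its start region at chr9:21615520-21617288. Its fold enrichment was 6.51, 8.83, 7.67 and 6.94 in MUT and 6.99, 7.21, 8.41 and 8.35 in WT. Its paralog Smarca2 read 3.38, 3.95, 3.40 and 3.63 in MUT and 4.0, 3.49, 3.98 and 3.72 in WT at chr19:26604566-26605472. Every Smarca4 value was above every Smarca2 value, while MUT and WT overlapped within each gene. Smarca2 instead held many regions along its 173.2 kb span, described below.

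Among the core subunits the starts of Smarcb1, Smarcc1 and Smarce1 were strong. SMARCB1 and SMARCE1 anchor the complex to the nucleosome and to DNA: their starts ranged from 9.79 to 13.12 and from 9.0 to 11.16 over the 8 libraries. Smarcc1, a scaffold of the core, read 9.22, 10.35, 10.26 and 10.48 in MUT and 8.79, 9.44, 10.71 and 11.05 in WT. Its paralog Smarcc2 read 5.58, 7.37, 6.40 and 6.07 in MUT and 5.84, 6.52, 7.71 and 9.41 in WT. Within every library Smarcc1 was the higher of the scaffold pair. Smarcd1 read 8.12, 9.41, 8.55 and 7.76 in MUT and 8.56, 7.55, 11.77 and 10.08 in WT. At its listed internal start, Smarcd3, the paralog known from heart and skeletal muscle, read 3.23, 4.36, 3.74 and 3.56 in MUT and 3.22, 3.67, 3.13 and 4.14 in WT. The region at the 5′ end of its span, chr5:24624174-24624698, was stronger in every library, at 6.41 to 9.92, so the low values hold for the internal start alone.

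In the actin-like pair the neuronal form had the stronger start. Actl6a, the form of dividing cells, had a start region at chr3:32708189-32709471 with 7.66, 9.47, 7.77 and 8.25 in MUT and 8.33, 8.54, 9.54 and 8.89 in WT. Actl6b, the form of mature neurons, had its only region at chr5:137553187-137554136, with 10.43, 11.75, 11.75 and 13.46 in MUT and 9.45, 10.91, 11.83 and 13.28 in WT. The ratio of Actl6b was the higher one in all 8 libraries. Of the small BCL7 subunits, Bcl7b read 8.71, 9.39, 8.99 and 9.06 in MUT and 8.66, 9.27, 8.53 and 10.69 in WT. Bcl7a read 4.94, 6.62, 5.45 and 6.17 in MUT and 5.20, 5.18, 5.91 and 6.28 in WT. Bcl7c read 5.01, 5.67, 5.55 and 5.39 in MUT and 4.79, 5.38, 6.07 and 6.02 in WT. Every value of Bcl7b was above those of the other two, which overlapped. Ss18, a core subunit known from synovial sarcoma fusions, ranged from 6.19 to 8.54.

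The subunits that set the BAF type held both ends of the order. Phf10, a PBAF subunit, was the strongest start, with 10.34, 12.52, 10.61 and 12.19 in MUT and 11.60, 11.40, 15.06 and 13.09 in WT. Its sequence above holds 5 GC boxes. Brd9, of non-canonical BAF, read 9.22, 10.68, 13.69 and 9.43 in MUT and 11.35, 11.42, 13.23 and 13.40 in WT. Its start region also covers the start of Trip13, whose span holds the midpoint of the shared region, so no region was assigned to Brd9. Brd7, a bromodomain subunit of PBAF, read 8.06, 9.93, 8.90 and 9.13 in MUT and 7.83, 8.68, 8.98 and 10.66 in WT. Pbrm1, its partner with several bromodomains, ranged from 8.44 to 10.76, in a region that also covers the start of Gnl3. The 3 ARID genes, which name the complexes, were all low. Arid1a read 3.96, 3.63, 3.95 and 4.07 in MUT and 3.57, 3.75, 3.75 and 3.96 in WT. Arid1b read 3.71, 4.54, 3.87 and 3.82 in MUT and 4.02, 3.82, 4.92 and 5.19 in WT. Arid2 read 3.47, 4.15, 3.56 and 3.78 in MUT and 3.56, 3.34, 3.92 and 4.60 in WT. Their ranges overlap. The start regions of Arid1b and Arid2 were wide, 3068 and 3141 bp, and that of Arid1a, 1193 bp, was below the members' median of 1503 bp.

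Of the DPF readers of histone acetylation, Dpf2, the widely expressed one, read 7.82, 11.22, 8.80 and 8.74 in MUT and 8.77, 9.34, 10.35 and 12.16 in WT. Dpf3, known from muscle and neurons, read 5.24, 6.73, 6.03 and 5.13 in MUT and 4.61, 5.79, 6.83 and 8.58 in WT. Dpf1, known from neurons, read 3.61, 5.74, 4.18 and 4.22 in MUT and 4.71, 4.50, 5.88 and 5.65 in WT. The order Dpf2, Dpf3, Dpf1 held in 7 of the 8 libraries, all but WT T1 replicate 1, where Dpf3 and Dpf1 were 4.61 and 4.71. All 5 paralogs known from neurons or muscle (Actl6b, Dpf1, Dpf3, Chd5 and Smarcd3) were open at the start in all 8 libraries, as were 65.3% of all genes. Chd5 was not when each list was reduced to its best 62232 peaks or to a −log10 q-value of at least 5. Smarcd3 was not with windows of 100 bp around summits.

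In NuRD the ratios at the start regions were high for the deacetylase genes and low for the ATPase genes. Hdac1 read 7.25, 9.79, 8.64 and 8.34 in MUT and 7.49, 8.98, 9.86 and 10.39 in WT. Hdac2, its close paralog, read 8.0, 9.94, 10.15 and 8.87 in MUT and 8.72, 10.01, 10.70 and 10.03 in WT. The ranges of the deacetylase genes overlapped. Chd4, the main NuRD ATPase, read 2.97, 3.19, 2.97 and 3.52 in MUT and 3.25, 3.23, 3.42 and 3.36 in WT over a region of 2686 bp, chr6:125094807-125097492. Chd3, at a span end, read 2.46, 3.69, 2.62 and 3.01 in MUT and 2.80, 2.71, 3.28 and 3.31 in WT. Inside its span, 2.65 kb from that end, chr11:69366038-69367660 was stronger in every library, at 4.74 to 6.74. Chd5, known from neurons and testis, read 3.38, 3.10, 3.83 and 3.71 in MUT and 4.38, 3.75, 4.96 and 5.84 in WT. Every start value of the 3 CHD genes was below every start value of the deacetylase genes.

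The other NuRD starts had medians over the libraries from 4.94 at Mta1 to 8.86 at Mbd2. Of the MTA scaffolds, Mta1 read 4.63, 5.01, 5.14 and 4.40 in MUT and 4.86, 4.32, 5.71 and 6.52 in WT. Mta3 read 5.12, 7.63, 6.79 and 5.81 in MUT and 6.54, 6.33, 8.05 and 6.64 in WT at its stronger span end. At its other span end, chr17:83705454-83707273, it read 5.15 to 6.08, and which end is the start was not listed. Mta2 read 6.55, 7.17, 6.38 and 6.42 in MUT and 7.34, 7.0, 7.58 and 7.82 in WT. At Mta2 the genotypes overlapped only between 7.0 and 7.17, and they separated, with MUT lower, once divided by the library median. Mbd2, which binds methylated DNA, read 7.90, 11.64, 8.61 and 7.43 in MUT and 8.41, 9.12, 9.32 and 11.11 in WT. Mbd3, which lacks that preference, read 7.0, 6.66, 7.08 and 6.05 in MUT and 6.60, 6.84, 7.43 and 8.06 in WT. Their ranges overlapped between 7.43 and 8.06. Of the histone binders, Rbbp4 read 7.64, 6.82, 6.96 and 6.72 in MUT and 7.86, 7.44, 6.32 and 7.23 in WT. Rbbp7 read 4.99, 5.42, 5.90 and 5.51 in MUT and 5.42, 5.72, 7.12 and 6.25 in WT. The histone binders overlapped between 6.32 and 7.12. Of the bridging subunits, Gatad2a, at its stronger, internal start, read 9.07, 8.70, 7.87 and 8.09 in MUT and 8.40, 8.99, 9.59 and 11.01 in WT. Gatad2b read 7.88, 7.44, 7.21 and 7.10 in MUT and 7.77, 6.71, 8.08 and 7.89 in WT. The region at the 5′ end of Gatad2a, chr8:69995663-69997063, read 6.01 to 8.48. The bridging subunits overlapped between 7.87 and 8.08 at the internal start of Gatad2a and over the whole range of Gatad2b at the other. The start of Rbbp4 shares its region with Zbtb8os, whose span holds the midpoint, so Rbbp4 too has no assigned region. The start region of Arid2 was assigned to Gm38469 for the same reason.

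Depth moved with these values and is given here once. A background of 1.89 to 2.45 fragments per position, recovered from the deposited ratios and p-values, was found in 3 shallower libraries, the second one of MUT T1 and the pair of WT T2, and 3.10 to 3.38 in the other 5. The lists held 62232 to 74785 peaks, with the fewest in the 3 shallower libraries. The median fold enrichment over the 38 starts was 7.54 in MUT T1 replicate 2 and 8.0 and 8.45 in WT T2, against 6.83 to 7.17 in the 5 deeper libraries. The highest of the 8 values was in a shallower library at 32 of 38 starts, and at 15 of 38 all 3 shallower libraries were above all 5 deeper ones. Among marker genes of cell types, the starts of 10 of 10 stem cell genes were open in all 8 libraries, where 65.3% of all genes were. The count was 1 of 5 for B cells, T cells and neutrophils each and 2 of 5 for erythroid cells. It was 4 of 5 for endothelium and stroma and 3 of 5 for neurons. The lists are short and open starts are common, so these counts do not measure purity. The part of depth, or of cells other than stem cells, in the results was not tested.

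**Figure D2:**
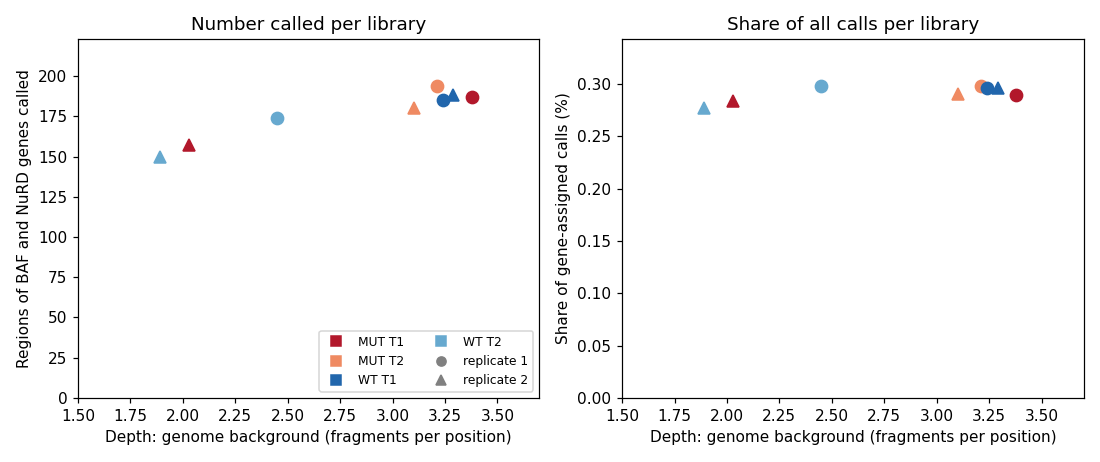
Per library, regions of the 39 genes called (left) and their share of all called regions assigned to a gene (right, %) against depth. Depth is the genome background in fragments per position. Points are libraries coloured by group and shaped by replicate: the 3 libraries at 1.89 to 2.45 have 150 to 174 regions, and the 5 at 3.10 to 3.38 have 180 to 194.

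The libraries called 187, 157, 194 and 180 member regions in MUT and 185, 188, 174 and 150 in WT. The 3 lowest numbers were those of the shallower libraries. MUT libraries had 179.5 ± 16.1 (SD, n = 4) and WT libraries 174.2 ± 17.3 (SD, n = 4), a difference smaller than the spread within each genotype. Each genotype pools T1 and T2 libraries here, so the SD mixes populations and replicates. The group means were 172.0 in MUT T1, 187.0 in MUT T2, 186.5 in WT T1 and 162.0 in WT T2. As a share of all regions assigned to a gene the members made up 0.290% ± 0.00607 (SD, n = 4) in MUT and 0.292% ± 0.00997 (SD, n = 4) in WT. Of the 241 regions, 127 were called in all 8 libraries, or 52.7%, against 56.1% of all assigned regions, and 33 in 1 library only, or 13.69% against 11.21%. The share differed with position: 39 of 41 regions at starts were called in all 8 libraries, against 62 of 150 inside spans and 26 of 50 outside them. Regions at starts had a median width of 1464 bp, those inside spans 622 bp and those outside 588 bp.

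How many regions a member held ranged from 0 to 60. The median was 5 for the 37 members with a region and 3 for all genes with one, and the members' median span was longer, 31.4 against 22.8 kb. Arid1b ranked 3 among 17094 genes, with 60 regions around its 353.4 kb span. Per library it had 42, 31, 38 and 40 in MUT and 40, 43, 36 and 29 in WT, and 21 of the 60 were called in all 8. The 3 shallower libraries again had the lowest numbers. Next came Smarca2 with 19 regions, 13 of them in all 8 libraries, and 15, 16, 17 and 16 in MUT and 16, 16, 15 and 14 in WT per library. Mta3 had 13, with 8 in all 8 libraries and 13, 9, 12 and 10 in MUT and 12, 11, 10 and 10 in WT per library. Dpf3 had 11, with only 3 in all 8 and 7, 4, 8 and 5 in MUT and 5, 6, 5 and 3 in WT. Arid1a, Gatad2a and Smarcd3 tied at 9, with 6 to 8, 7 to 8 and 5 to 8 per library. In all of these the genotypes overlapped. At the other end, 5 members (Actl6b, Dpf2, Phf10, Bcl7b and Mbd3) held 1 region each, called in all 8 libraries. In Smarcb1, with 2 regions, and Bcl7a, with 5, every region was also called in all 8.

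**Figure D3:**
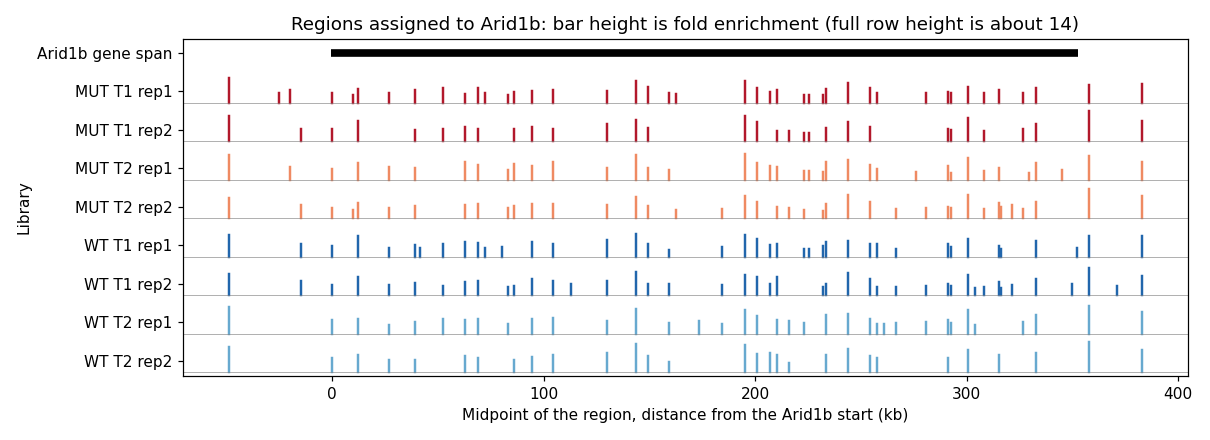
The 60 regions assigned to Arid1b by distance from its start (kb), 1 row per library, with the gene span on top. Bar height is fold enrichment; the 21 regions called in all 8 libraries line up through all rows, and the number of bars per row runs from 29 to 43.

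The strongest regions of the members lay away from starts in 4 of 5 cases, ranked by the lowest of the 8 values. The highest was chr3:32698010-32698697, 10.19 kb before the start of Actl6a, with 12.13, 12.85, 13.27 and 12.62 in MUT and 15.12, 11.71, 17.75 and 11.77 in WT. A region 27.87 kb outside the span of Smarcd3, chr5:24651984-24652676, read 13.11, 15.47, 15.74 and 12.57 in MUT and 12.61, 11.46, 16.95 and 15.82 in WT. Both were called in every library, and their genotypes overlapped. A region 44.24 kb beyond the span of Smarca2, chr19:26822058-26823072, read 12.12, 12.30, 10.53 and 11.36 in MUT and 12.05, 10.59, 12.04 and 11.66 in WT. Smarca2 thus had a ratio of 3.38 to 4.0 at its start and of 10.53 to 12.30 at this distal region. Distal regions were given to the nearest gene span by position alone. The other 2 were the region of Bcl7c described below and the start of Phf10.

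Calls that differed between MUT T1 and WT T1, the comparison of genotypes within T1, were few at the members. A region was gained when both MUT T1 libraries and neither WT T1 library called it, and lost in the reverse case. No test was made per region, given 2 libraries a group and calls that are present or absent. Of 224 member regions called in at least 1 of the 4 libraries, 3 were gained, or 1.34%, where the background over all assigned regions was 1.27%, and 6 were lost, or 2.68%, against 2.27%. Both shares were near the background. The gained regions were at Actl6a, Smarcd3 and Arid1b, and the lost ones at Hdac1, Arid1a and Bcl7c, with 3 more at Arid1b.

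The region of Actl6a, chr3:32715020-32715652, lies 6.79 kb into the gene and was called in the MUT T1 pair (4.79 and 4.94), the MUT T2 pair (5.93 and 6.34) and the WT T2 pair (5.51 and 4.84). It was missing in the WT T1 libraries alone, which are 2 of the deeper ones. That of Smarcd3, chr5:24629641-24630122, 5.43 kb outside the span, was called in the MUT T1 pair (4.03 and 4.58), MUT T2 replicate 1 (7.64) and WT T2 replicate 1 (4.35). At Hdac1, chr4:129536016-129536601 inside the span was called in MUT T2 replicate 1 (3.74), the WT T1 pair (4.46 and 3.50) and the WT T2 pair (4.35 and 4.22). So it was called in 4 of 4 WT and 1 of 4 MUT libraries. That of Bcl7c, chr7:127641362-127641705, 19.92 kb outside the span, was called in MUT T2 replicate 1 (3.33) and the WT T1 pair (3.98 and 3.26), all deeper libraries.

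With each list reduced to its best 62232 peaks, 1 of the 3 gains, that of Arid1b at chr17:5321334-5321823, and 0 of the 6 losses still met the definition. Leaving out a library asks for fewer calls, at the members and over all regions alike. Without the first MUT T1 library there were 6 gains, or 2.8% against 3.18% of all regions, and 27 losses, or 12.6% against 10.1%. Without the second there were 13 gains (5.88% against 5.99%) and 11 losses (4.98% against 3.43%). Without the first WT T1 library there were 9 gains (4.21% against 2.53%) and 17 losses (7.94% against 6.02%), and without the second 8 (3.76% against 3.27%) and 16 (7.51% against 5.96%).

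Within T2 the members had 8 gained regions of 219, or 3.65%, against a background of 4.17%, and 1 lost, or 0.457%, against 0.468%. More gains than losses was the pattern of all regions in this comparison, in which both WT T2 libraries are shallower than both MUT T2 libraries. The gains were at Arid1a, Chd4, Bcl7c, Gatad2a, Brd7 and Smarcc2, with 2 more at Arid1b. At Chd4, chr6:125110878-125111306, 14.93 kb into the gene, was called in MUT T1 replicate 1 (5.53), the MUT T2 pair (6.17 and 6.82) and the WT T1 pair (6.84 and 6.52). The 3 libraries without a call are the 3 shallower ones. At Brd7, chr8:88380353-88381134, 18.49 kb outside the span, was called in the MUT T1 pair (5.38 and 6.25), the MUT T2 pair (5.51 and 6.41) and the WT T1 pair (4.87 and 5.42). Here the shallower MUT T1 library did have a call.

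With equal numbers of peaks 4 of the 8 gains still met the definition, those at Arid1a, Chd4, Brd7 and Smarcc2, and the loss did not. At Smarcc2, chr10:128455286-128455557, 3.76 kb outside the span, was called in the MUT T2 pair (3.44 and 3.31) and WT T1 replicate 1 (3.75). At Gatad2a, chr8:70003211-70003621, 7.01 kb outside, was called in the MUT T1 pair (2.84 and 4.29), the MUT T2 pair (3.60 and 2.85) and WT T1 replicate 1 (3.83), so its calls covered 4 of 4 MUT and 1 of 4 WT libraries. At Bcl7c, chr7:127646457-127647009 was called in the MUT T2 pair (4.63 and 5.17) and WT T1 replicate 1 (3.57). The loss was the region of Arid1a at chr4:133752797-133753163, 1.0 kb past the internal listed start, called only in the WT T2 pair (1.91 and 1.89), the lowest ratios among the regions that changed. Without the first MUT T2 library there were 18 gains (8.96% against 8.56%) and 6 losses (2.99% against 2.01%), and without the second 26 (12.4% against 10.6%) and 2 (0.957% against 1.28%). For WT T2 the same gave 23 gains (10.9% against 10.2%) and 1 loss (0.474% against 1.84%), and 15 (6.85% against 7.07%) and 9 (4.11% against 2.98%).

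**Figure D4:**
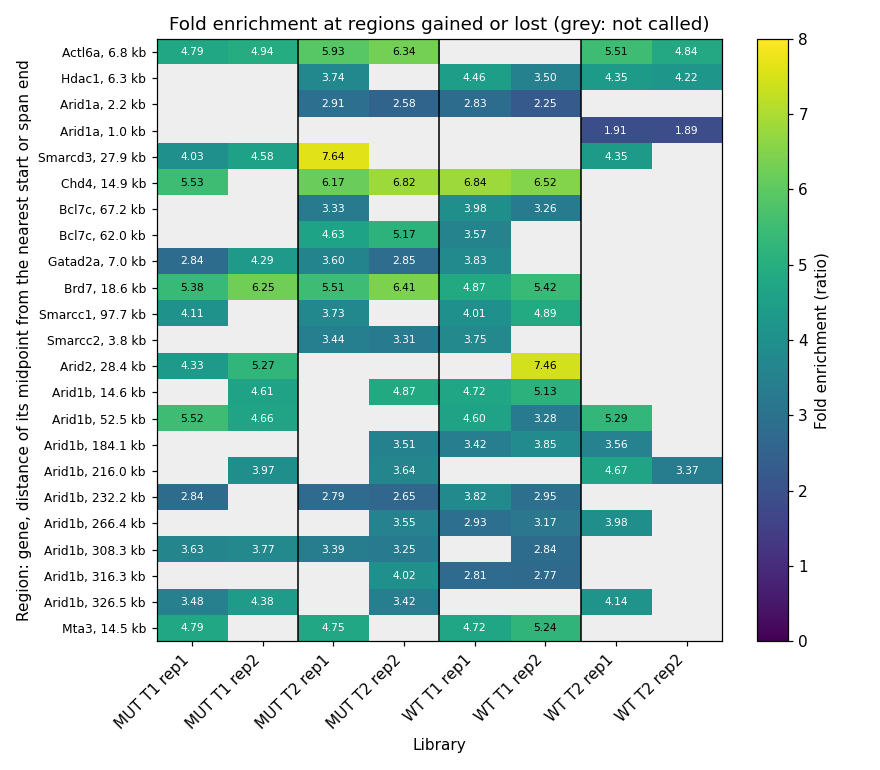
Fold enrichment (colour, ratio) in the 8 libraries of the 23 member regions gained or lost in a comparison of groups, labelled by gene and by distance of the midpoint from the nearest listed start or, without one, span end (kb). Grey means not called; the values run from 1.89 to 7.64, and no row is coloured in all 4 libraries of one genotype and grey in all 4 of the other.

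MUT T1 against MUT T2, the populations within MUT mice, showed 2 gains of 221 regions, or 0.905%, against 0.647%, and 3 losses, or 1.36%, against 1.86%. The gains were at Arid2, where chr15:96315555-96316217 was called in the MUT T1 pair (4.33 and 5.27) and WT T1 replicate 2 (7.46), and at Arid1b. The losses were the regions of Arid1a, Bcl7c and Smarcc2 that were gained in MUT T2 against WT T2. With equal numbers of peaks, the gain at Arid1b and the losses at Arid1a and Smarcc2 still met the definition. Leaving out the first or the second MUT T1 library gave 4 gains (1.87% against 2.21%) and 20 losses (9.35% against 9.28%), or 9 (4.11% against 4.76%) and 6 (2.74% against 3.11%). For MUT T2 this gave 5 gains (2.4% against 2.58%) and 11 losses (5.29% against 4.98%), or 3 (1.41% against 1.72%) and 16 (7.51% against 6.36%). Comparisons that share libraries, as this one does with those above, are not independent of each other.

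WT T1 against WT T2 showed 9 gains of 219, or 4.11%, against 4.2%, and 3 losses, or 1.37%, against 0.665%. The gains were the regions of Arid1a, Chd4, Bcl7c (chr7:127641362-127641705) and Brd7, with regions at Smarcc1 and Mta3 and 3 at Arid1b. That of Smarcc1, chr9:110229356-110230014, 97.66 kb into the gene, was called in MUT T1 replicate 1 (4.11), MUT T2 replicate 1 (3.73) and the WT T1 pair (4.01 and 4.89). That of Mta3, chr17:83720450-83720847, was called in MUT T1 replicate 1 (4.79), MUT T2 replicate 1 (4.75) and the WT T1 pair (4.72 and 5.24). Both were thus called in 4 deeper libraries and in no shallower one. The losses were at Actl6a, Arid1a and Arid1b. With equal numbers of peaks those of Actl6a and Arid1b and the gains of Chd4 and Brd7 still met the definition. Leaving out the first or the second WT T1 library gave 22 gains (10.7% against 9.4%) and 4 losses (1.95% against 1.55%), or 23 (11.2% against 9.09%) and 4 (1.94% against 2.07%). For WT T2 this gave 23 gains (10.9% against 10.4%) and 3 losses (1.42% against 2.23%), or 15 (6.85% against 7.0%) and 11 (5.02% against 3.48%).

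The 9 regions of Arid1b show how calls scatter over a long gene. The first, chr17:4980219-4980673, 13.85 kb outside the span, was called in MUT T1 replicate 2 (4.61), MUT T2 replicate 2 (4.87) and the WT T1 pair (4.72 and 5.13). At 52.45 kb from the start, chr17:5047276-5047764 was called in the MUT T1 pair (5.52 and 4.66), the WT T1 pair (4.60 and 3.28) and WT T2 replicate 1 (5.29). At 184.1 kb, chr17:5178916-5179529 was called in MUT T2 replicate 2 (3.51), the WT T1 pair (3.42 and 3.85) and WT T2 replicate 1 (3.56). The second of these was called in 4 of 4 T1 and 1 of 4 T2 libraries. At 216 kb, chr17:5210660-5211402 was called in MUT T1 replicate 2 (3.97), MUT T2 replicate 2 (3.64) and the WT T2 pair (4.67 and 3.37), which includes all 3 shallower libraries. At 232.2 kb, chr17:5227083-5227509 was called in MUT T1 replicate 1 (2.84), the MUT T2 pair (2.79 and 2.65) and the WT T1 pair (3.82 and 2.95), the 5 deeper libraries and no shallower one. At 266.4 kb, chr17:5261176-5261724 was called in MUT T2 replicate 2 (3.55), the WT T1 pair (2.93 and 3.17) and WT T2 replicate 1 (3.98). At 308.3 kb, chr17:5303113-5303721 was called in the MUT T1 pair (3.63 and 3.77), the MUT T2 pair (3.39 and 3.25) and WT T1 replicate 2 (2.84) and in neither WT T2 library. At 316.3 kb, chr17:5311053-5311617 was called in MUT T2 replicate 2 (4.02) and the WT T1 pair (2.81 and 2.77). The last, chr17:5321334-5321823, was called in the MUT T1 pair (3.48 and 4.38), MUT T2 replicate 2 (3.42) and WT T2 replicate 1 (4.14).

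All MUT against all WT gave 0 gains and 0 losses among the 241 regions, against 0.204% and 0.0528% of all regions. At shares this small few or none would be expected among 241 regions, so these counts say little of the members. In all, 23 regions of 13 genes met the definition in at least 1 comparison of groups, or 9.54%, against 9.53% of all assigned regions, and 9 of the 23 were at Arid1b. Of the 23, 1 was at a start, 15 inside a span and 7 outside, and 26 members had none. The ratios over the 23 regions ran from 1.89 to 7.64. Among all member regions, 2 were called in the 5 deeper libraries and in none of the 3 shallower, or 0.83% against 0.566% of all assigned regions, and 0 were called in the 3 shallower and in none of the deeper. A further 16 were called in the 5 deeper and missing in 1 or 2 of the shallower.

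The number of called regions per gene gave no member that separated MUT from WT: 0 of 37, where 0.509% of 17094 genes were higher and 0.0995% lower in every MUT library. T1 against T2 also gave 0 members, where 0.129% were higher and 0.0585% lower in T1. An exact two-sided permutation test over the 8 libraries can go no lower than p = 0.02857 (70 arrangements). It treated all 8 libraries as exchangeable, so the genotype test ignored population and the population test ignored genotype. Over all genes, 104 reached a p under 0.05 for genotype and 32 for population, and 0 after Benjamini-Hochberg adjustment, with a lowest adjusted p of 1.0 in both. Given the floor, an adjusted p under 0.05 would need most of the 17094 genes to reach it. The count of 0 therefore does not show that differences are absent.

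Fold enrichment over the 127 member regions called in all 8 libraries was higher in every MUT than in every WT library at 1 region, or 0.787%, against 0.552% of 44587 regions, and lower at 3, or 2.36%, against 2.44%. These are descriptions with no test, and both shares were near those of all regions. The higher one was inside Ss18, at chr18:14656660-14657890, with 6.18, 6.93, 6.24 and 6.89 in MUT and 5.01, 5.18, 6.07 and 6.12 in WT libraries. One of the lower ones was inside Bcl7c, at chr7:127674909-127675592, with 11.19, 11.35, 10.89 and 11.07 in MUT and 11.69, 12.47, 12.90 and 14.31 in WT libraries. Its means were 11.13 ± 0.19 (SD, n = 4) in MUT and 12.84 ± 1.10 (SD, n = 4) in WT. Both kept the separation when each library was divided by its median, where 3 regions were higher (Ss18, Bcl7a and Smarca2, against 1.74% of all regions) and 2 lower (Bcl7c and Mta2, against 1.64%).

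The 2 other lower regions lost the separation under that division. They were chr12:83501800-83502797, 14.56 kb before Dpf3, with 11.07 in MUT and 13.00 in WT on average, and chr17:5205186-5205634 inside Arid1b, with 4.34 and 5.60. Between populations, 0 regions were higher in every T1 library (against 0.244%) and 6 lower, or 4.72% against 2.96%, with 2 of the 4 T2 libraries being shallower ones. After the division by the library median 0 were higher, against 1.43%, and 3 lower, or 2.36%, against 1.27%. The 2 lower in T1 both ways were inside Smarca2 (chr19:26697038-26697555, with 4.89, 5.60, 5.12 and 4.89 in T1 and 6.65, 6.74, 7.34 and 7.82 in T2) and inside Arid1b (chr17:5228065-5228779, with 5.20, 4.92, 5.34 and 4.25 in T1 and 6.42, 5.41, 6.72 and 6.31 in T2).

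Related genes outside the set are given for comparison, beside the 65.3% of all genes with a start region called in all 8 libraries. Of 24 genes of other remodelling complexes (ISWI, INO80, SRCAP and other CHD proteins), 24 had a start region called in all 8 libraries. Of 10 further subunits and recruiters, among them Bcl11a itself, 9 had one, and the exception was Bcl11b, a paralog of Bcl11a known from T cells. Within the members, the start was open at 14 of 15 BAF core genes, 5 of 5 canonical BAF, 4 of 4 PBAF and 1 of 1 non-canonical BAF genes. In NuRD it was open at 7 of 7 genes of the remodelling side and at 7 of 7 of the deacetylase side.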

How the data were processed

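Each library has its own peak list, deposited by the authors, so calls were made per sample and not on pooled samples. Per the deposited columns each peak has a score, a fold enrichment (a ratio), and significance as −log10 of a p-value and of a q-value. Per the submitters' processing notes Bowtie2, SAMtools and MACS2 were used with mm10, and no versions are listed. A shift of cut sites for the transposase is not stated in the sources used here. No deposited −log10 q-value is below 3.00, so a region without a call may be accessible under that threshold. The lists hold no read totals, so depth was recovered by solving each ratio and p-value for the background of the peak, which succeeded for at least 99.9986% of peaks per library.

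Peaks on chromosomes 1 to 19 and X that overlapped by at least 1 bp were merged over the 8 lists. A region went to the protein-coding gene span holding its midpoint, else to the nearest within 50 kb. Where several peaks of a library fell in a region, the highest ratio was used. Gene spans, starts and promoter sequences came from RefSeq tables (GRCm38.p6). Work was done in Python 3.11.15 with pandas 2.3.3, NumPy 2.4.6 and SciPy 1.17.1, and was tested on simulated data. Genotypes were compared within T1, within T2 and over all libraries, and populations within each genotype. Permutation p-values per gene were adjusted over all genes with a region. Alternatives were equal numbers of peaks, a −log10 q-value of at least 5, windows of 100 bp around summits, other distances to genes or starts, scaling by library median, a replicate block and leaving out each library.

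The members, gene lists and tests were chosen with earlier results of these data known. Values per library are given for members with a gained or lost region or without an open start, the 5 with most regions, the 5 strongest regions, and paralog groups. Sequence of peaks was not used here, and no sequence is printed for the chromosome 18 members.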

Additional observations from a re-analysis of the deposited data

Results flagged for a closer look

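The region of Arid1a at chr4:133751581-133751982, 2.20 kb past the internal start listed for the gene, was lost in MUT T1 against WT T1 and gained in MUT T2 against WT T2. It was called in 4 libraries, at 2.91 and 2.58 in MUT T2 and at 2.83 and 2.25 in WT T1, and in none of MUT T1 or WT T2. The difference between the populations was not tested. With equal numbers of peaks the gain in T2 still met the definition and the loss in T1 did not. Of the 4 libraries without a call, 3 are the shallower ones.

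The number of called regions at Smarcc2 was 1 and 1 in MUT T1 against 2 and 2 in WT T1, and 2 and 2 in MUT T2 against 1 and 1 in WT T2. The number thus went opposite ways with genotype in the populations, by 1 region each, and this difference was not tested either. Smarcc2 has 3 regions in all, and the start region was called in all 8 libraries. The other region was chr10:128455286-128455557 in both MUT T2 libraries and in WT T1 replicate 1. In WT T1 replicate 2 it was a region inside the span that no other library called. No region of Smarcc2 was therefore lost in MUT T1 against WT T1 by the definition. All 3 shallower libraries had 1 region, as did MUT T1 replicate 1.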

How the results depend on the processing

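The 241 regions became 226 when genes had to lie within 20 kb and 189 when regions went to the nearest gene start or end. Starts open in all 8 libraries numbered 37 within 250 bp (without Ss18), against 62.88% of all genes, and 38 within 2 kb, against 67.47%. They numbered 36 with equal numbers of peaks (without Chd3 and Chd5), against 63.91%, and 37 with the stricter q (without Chd5), against 65.04%. Windows around summits gave 29, against 54.47%. Without any 1 library the open starts stayed at 38, against 65.37% to 65.66%.

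Shares of all regions stand after "against". With equal numbers of peaks, 2 regions were lost in MUT T1 against WT T1 (1.07% against 1.84%), 5 gained and 2 lost in MUT T2 against WT T2 (2.60% against 2.02%, 1.04% against 1.75%), and 2 gained in WT T1 against WT T2 (1.04% against 2.23%). The stricter q left 0 lost in MUT T2 against WT T2 (against 0.438%) and 1 in WT T1 against WT T2 (0.474% against 0.625%). Windows around summits gave 3 lost in MUT T2 against WT T2 (1.23% against 1.03%), 6 in MUT T1 against MUT T2 (2.37% against 2.18%) and 7 in WT T1 against WT T2 (2.87% against 1.33%). Leaving out 1 library asks for fewer calls and so raises counts by construction: gains and losses were 6 to 13 and 11 to 27 for MUT T1 against WT T1, 15 to 26 and 1 to 9 for MUT T2 against WT T2, 3 to 9 and 6 to 20 for MUT T1 against MUT T2, 15 to 23 and 3 to 11 for WT T1 against WT T2, and 0 to 1 each for all MUT against all WT.

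Genes whose region numbers separated MUT from WT were 1 with equal numbers of peaks (Chd3), where 0.361% of all genes were higher and 0.237% lower. With the replicate block there was also 1 (Arid2), and the shares were 1.08% and 0.252%. Leaving out 1 library asks for fewer libraries to differ and gave 0 to 1. Hdac1 separated, with MUT lower, without MUT T2 replicate 1, where 103 of the 17094 genes with a region were higher and 43 lower. Arid2 separated, with MUT higher, without MUT T2 replicate 2, where 132 of the 17094 were higher and 30 lower. Regions whose fold enrichment separated MUT from WT, 4 in all, were 5 to 12 without 1 library (5 and 12 without each MUT T1 library, 10 and 7 without each of MUT T2, 6 without any of WT). With the replicate block they were 16, with 4 higher and 12 lower. Over all regions the block gave 2.70% higher and 9.996% lower, and leaving out a library 0.794% to 1.75% higher and 3.26% to 6.38% lower. The block asks only that same-numbered libraries differ alike. The correlations of replicate differences between groups were 0.01498 to 0.07741, so the numbers are not taken to pair libraries.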
